A study of Homo sapiens with 18 samples.

Results

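MALAT1, NEAT1, GAS5, SNHG1, SNHG7, SNHG8, SNHG12, SNHG15, SNHG16 and ZFAS1 are long noncoding RNAs (lncRNAs) of the nucleus or hosts of small nucleolar RNAs (snoRNAs), and they were followed across ovarian cancer cell lines that are sensitive or resistant to platinum chemotherapy. The members were chosen by gene symbol, and all 10 were present among the 12853 genes of the RNA-seq table. RNA was sequenced from 6 lines with 3 libraries per line, and the question of the comparison was which genes differ in expression between each sensitive line and its resistant counterpart. A2780, a sensitive line labelled as endometrial/ovarian, is paired with CP70, a resistant derivative that was selected in vitro. The PEA pair was grown from the ascites of a donor with high-grade serous ovarian cancer. PEA1 was sampled when no platinum had been given, and PEA2 at a later relapse that no longer responded to it. The PEO pair stems from another donor with this diagnosis who had received platinum by the time of both samples, and resistance was seen in the clinic by PEO4 and not yet by PEO1. The culture protocol shared by all lines names RPMI-1640 with glutamine and fetal bovine serum and no drug, and total RNA depleted of ribosomal RNA went into directional libraries. Each line stands for a single tumour or selection, and the labels do not say that the 3 libraries came from separate cultures. Except in a linear model over all pairs, every p-value here therefore measures the spread between these libraries, which may be technical.

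MALAT1 is an abundant nuclear RNA found at nuclear speckles, the nuclear bodies rich in splicing factors. NEAT1 is the scaffold RNA around which paraspeckle proteins assemble. The GAS5, SNHG and ZFAS1 genes carry snoRNAs in their introns, which are trimmed out after splicing and guide chemical modification of ribosomal and other RNAs. The spliced host RNA that remains is in many cases engaged by ribosomes and degraded by nonsense-mediated decay, and several host genes start transcription within a run of pyrimidines, as ribosomal protein genes do (terminal oligopyrimidine genes).

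RefSeq (GRCh38.p14) placed 11 snoRNA genes in GAS5, 9 in SNHG1, 4 in SNHG12, 3 in SNHG16, 3 in ZFAS1, 2 in SNHG7, 1 in SNHG8 and 1 in SNHG15, and none in MALAT1 or NEAT1. The guides themselves were not measured, since 0 of these snoRNA genes matched a row of the table. The letters around the annotated start are shown because a pyrimidine run there is a feature of several host genes. Each sequence holds 10 bases before the RefSeq start and 20 from it, reads 5′ to 3′ on the gene's strand, was found once on the member's GRCh37 chromosome, and has in capitals the run of C and T that begins with a C at the first transcribed base.
GAS5: tcatgaattcagatgtgtttattttggagc
SNHG1: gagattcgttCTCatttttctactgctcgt
SNHG7: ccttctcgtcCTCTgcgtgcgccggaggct
SNHG8: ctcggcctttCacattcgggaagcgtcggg
SNHG12: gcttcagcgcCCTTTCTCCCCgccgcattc
SNHG16: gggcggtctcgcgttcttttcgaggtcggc
ZFAS1: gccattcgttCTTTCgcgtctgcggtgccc

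A start with a C followed by at least 4 bases that are each C or T was present in SNHG12 (chr1:28908366-28908395, minus strand, GRCh37) and ZFAS1 (chr20:47895169-47895198, plus strand), which is 2 of the 7 hosts matched. Of all 27305 RefSeq promoters, 4.04% held such a start, and of 33 protein-coding snoRNA hosts, 42.4% did. The other windows lie at chr1:173838164-173838193 for GAS5, chr11:62623338-62623367 for SNHG1 and chr9:139622617-139622646 for SNHG7, all on the minus strand, and at chr4:119199907-119199936 for SNHG8 and chr17:74553836-74553865 for SNHG16, both on the plus strand. A match describes only the letters of this window, and a gene can also start elsewhere. The GAS5 window lies outside the GENCODE span of GAS5 (chr1:173827697-173838020), so it does not show the start annotated there. SNHG15 was not matched.

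The reads on listed genes ranged from 1344098 to 7067336 per library and were fewest in PEA1, at 1344098 to 1670866. The smallest detectable count, taken as 3 reads, corresponded to 0.452 to 2.18 CPM (reads per 1e6 scaled library reads), and 9 of the 10 lncRNAs had more than 3 reads in every library. SNHG12 was the exception, with 10, 4 and 3 reads in the PEA1 libraries. In the check of the labels, PAX8 and WT1, which mark serous ovarian cells, had at most 1 read in any A2780 or CP70 library and 7 to 1276 reads in the libraries of the 4 other lines. MUC16, another ovarian marker checked, did not set PEA1 apart from A2780 and CP70. It had 0 to 1 reads in A2780, 0 to 4 in CP70 and 0 to 5 in PEA1. The reads were 211 to 576 in PEA2, 6517 to 23712 in PEO1 and 5165 to 11443 in PEO4. Of 10 markers of leukocytes, endothelium and fibroblasts, 4 were in the table. Their summed level was 5.36 to 8.95 CPM in A2780 and 64.2 to 67.8 CPM in CP70 (DCN, LUM and THY1), 1.15 to 2.91 CPM in PEA1 and 20.7 to 26.1 CPM in PEA2 (PTPRC), 152 to 170 CPM in PEO1 and 148 to 156 CPM in PEO4 (THY1). DCN and LUM had 0 reads in all PEA libraries, and PTPRC had at most 2 reads in any A2780, CP70, PEA1, PEO1 or PEO4 library. In the A2780 and PEA pairs, some of these markers moved with the differences described here. So did the epithelial genes EPCAM, KRT8 and KRT18, which rose in CP70 and PEA2 (FDR at most 1.04e-06). MUC16 rose in PEA2 by 6.70 log2 (limma FDR 5.16e-08). In the PEO pair 0 of the 4 markers passed, and of EPCAM, KRT8 and KRT18 only EPCAM did (FDR 0.0402). WT1 rose in PEO4 by 1.44 log2 (FDR 0.00243). The part of all these genes in the pair differences was not tested.

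MALAT1 was the most abundant of the 10 RNAs per kilobase of annotated exon in all 6 lines. It lies at chr11:65265111-65275544 on the plus strand (GRCh37, GENCODE) and reached 148 ± 1.29 CPM per kilobase in A2780 (SD, n = 3) and 657 ± 149.7 in PEO4 (n = 3). The next highest level per kilobase in any line was 69.7 ± 2.17 for SNHG16 in PEO4 (n = 3). Per the paper, reads were counted over known hg19 genes from UCSC, but the exons counted in each gene are not given in the sources used here. These levels per length therefore rest on the full GENCODE exons of all transcripts. Those exons cover the whole span of SNHG1 (3976 bases), SNHG8 (6614) and SNHG15 (3943). A shorter transcript length would raise the level of a host, so the ranking per kilobase depends on this choice. Together the 10 RNAs took 0.223% to 1.02% of the reads on listed genes, and the 8 hosts alone took 0.0278% to 0.0924%.

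**Figure D1:**
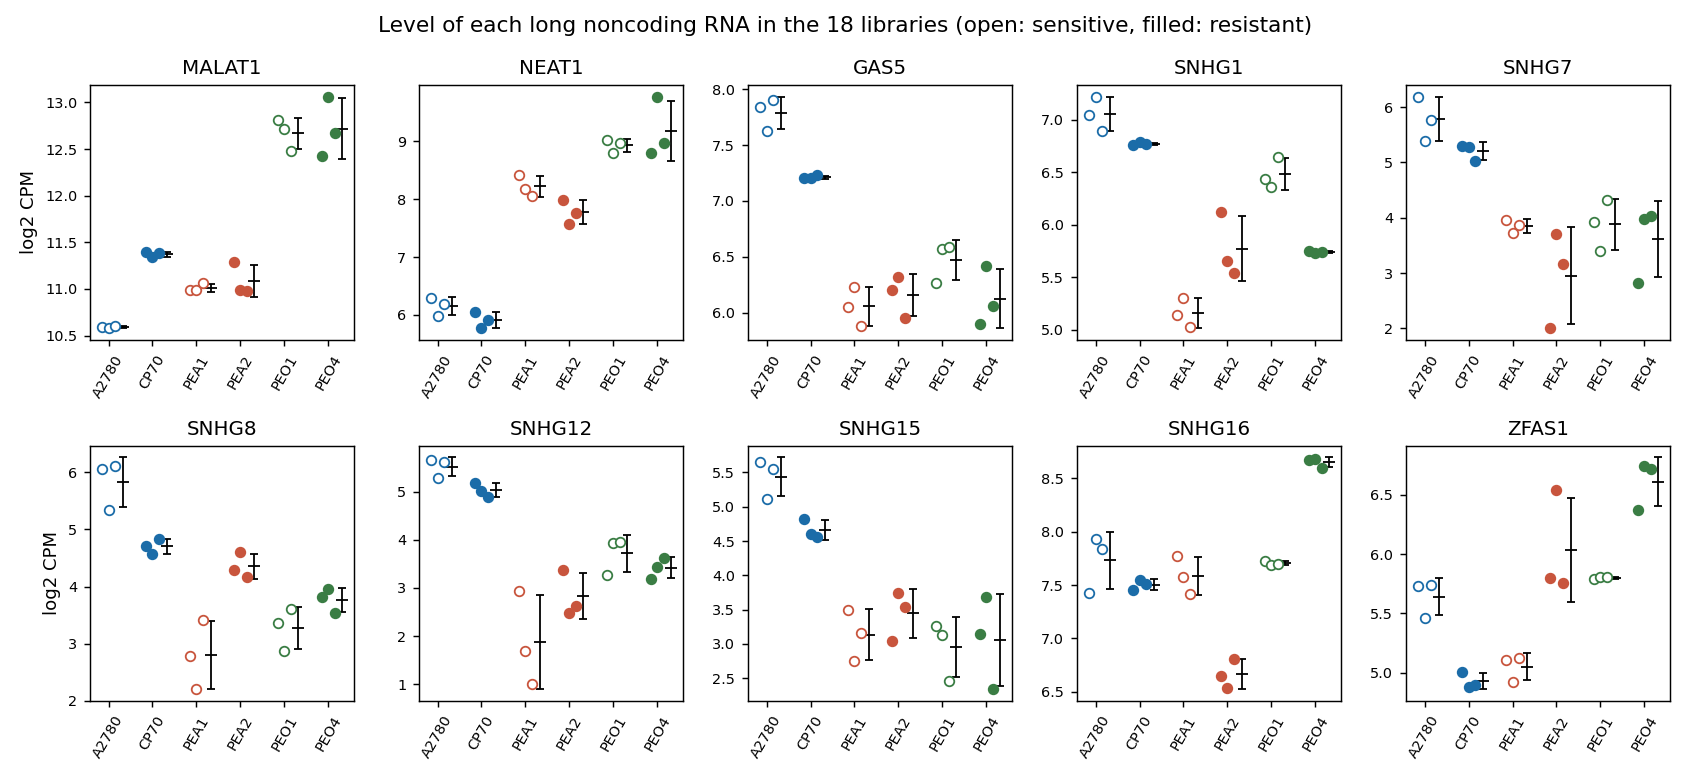
Level of each lncRNA in log2 CPM on the vertical axis (each panel has its own range) by cell line on the horizontal axis. Points are the 3 libraries of a line, open for the sensitive and filled for the resistant line, and bars give the mean ± SD; NEAT1 was lowest in A2780 and CP70, where GAS5, SNHG1, SNHG7, SNHG12 and SNHG15 were highest.

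NEAT1, at chr11:65190245-65213011 on the same strand and 52100 bases before MALAT1, separated the lines by origin. Its levels were 6.30, 5.98 and 6.18 log2 CPM in A2780, 6.05, 5.77 and 5.91 in CP70, 8.43, 8.18 and 8.06 in PEA1, 7.99, 7.58 and 7.76 in PEA2, 9.02, 8.81 and 8.98 in PEO1 and 8.80, 9.78 and 8.98 in PEO4. Every A2780 and CP70 library thus lay below every PEA and PEO library, as for 13.2% of all genes. The means of the 6 A2780 and CP70 libraries and of the 12 PEA and PEO libraries were 6.03 and 8.53 log2 CPM, a difference of -2.50 or 5.65-fold. All 8 contrasts of A2780 or CP70 with a PEA or PEO line passed the limma test (FDR at most 7.94e-08). Of all genes, 71.9%, 74.3%, 72.0% and 72.6% passed in the contrasts of A2780 with PEA1, PEA2, PEO1 and PEO4, and 70.4%, 72.3%, 68.8% and 70.1% in those of CP70. Between a PEA and a PEO line the share was 68.1% for PEA1 and PEO1, 67.7% for PEA1 and PEO4, 66.9% for PEA2 and PEO1 and 68.1% for PEA2 and PEO4. In the order of line means, CP70 and A2780 (FDR 0.299) and PEO1 and PEO4 (FDR 0.282) did not pass, whereas the steps from A2780 to PEA2, from PEA2 to PEA1 (FDR 0.0377) and from PEA1 to PEO1 (FDR 0.00166) did.

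MALAT1 had another order. It was at 10.60, 10.58 and 10.60 log2 CPM in A2780, 11.39, 11.34 and 11.38 in CP70, 10.98, 10.99 and 11.06 in PEA1, 11.29, 10.99 and 10.97 in PEA2, 12.81, 12.72 and 12.48 in PEO1 and 12.42, 13.06 and 12.67 in PEO4. The PEO libraries were all above the libraries of the other lines, and the A2780 libraries were all below them. The step from CP70 to PEO1 was 1.29 on the log2 scale (FDR 5.61e-08) and the step from A2780 to PEA1 was 0.42 (FDR 0.0102), while PEA1 and PEA2 (FDR 0.658), PEA2 and CP70 (FDR 0.0656) and PEO1 and PEO4 (FDR 0.799) did not pass the test. PEO4 was 2.13 log2 above A2780 (FDR 2.40e-11).

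Among the hosts, GAS5, SNHG1, SNHG7, SNHG12 and SNHG15 were higher in every A2780 and CP70 library than in every PEA and PEO library, a pattern held by 9.62% of all genes. GAS5 (chr1:173827697-173838020, minus strand) spanned 7.20 to 7.91 log2 CPM in the A2780 and CP70 libraries against 5.88 to 6.59 in the others. SNHG12 (chr1:28905050-28909644, minus strand) had the widest gap between the means, with 5.28 against 2.96 log2 CPM, or 4.97-fold. SNHG7 (chr9:139615818-139622636, minus strand) was 3.78-fold higher, SNHG15 (chr7:45022618-45026560, minus strand) 3.74-fold and SNHG1 (chr11:62619450-62623425, minus strand) 2.18-fold. All 8 contrasts between these origins passed for GAS5, SNHG7, SNHG12 and SNHG15 (FDR at most 0.00334), and 7 of 8 passed for SNHG1, whose contrast of CP70 with PEO1 did not (FDR 0.0627). SNHG8 (chr4:119199858-119206471, plus strand) was higher in 7 of the 8 contrasts, but its libraries overlapped, and the contrast of CP70 with PEA2 did not pass (FDR 0.2597).

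SNHG16 and ZFAS1 did not follow the origin of the lines. SNHG16 (chr17:74553809-74667067, plus strand) was lowest in PEA2 and highest in PEO4, 1.99 log2 apart (FDR 9.23e-12). CP70, PEA1, PEO1 and A2780 lay between them, and the steps among these 4 lines did not pass the test (FDR 0.357 to 0.845). ZFAS1 (chr20:47894715-47916137, plus strand) was lowest in CP70 and highest in PEO4, 1.68 log2 apart (FDR 1.74e-08). Its steps from PEA1 to A2780 (FDR 0.00334) and from PEA2 to PEO4 (FDR 0.0044) passed, and the steps from CP70 to PEA1, from A2780 to PEO1 and from PEO1 to PEA2 did not (FDR 0.217 to 0.527). In GAS5 the steps from PEA1 to PEO4 (FDR 0.658) and from PEO4 to PEA2 (FDR 0.837) did not pass. In SNHG1 the steps from PEO4 to PEA2 (FDR 0.857), from PEO1 to CP70 (FDR 0.0627) and from CP70 to A2780 (FDR 0.1004) did not pass. In SNHG7, SNHG8 and SNHG15 no step among the PEA and PEO lines passed (FDR at least 0.0677), nor did those from CP70 to A2780 in SNHG7 (FDR 0.226) and SNHG15 (FDR 0.0542) and from PEA2 to CP70 in SNHG8 (FDR 0.2597). In SNHG12 the steps from PEA2 to PEO4 (FDR 0.151), from PEO4 to PEO1 (FDR 0.546) and from CP70 to A2780 (FDR 0.307) did not pass.

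Between CP70 and A2780, MALAT1 rose and GAS5, SNHG8 and ZFAS1 fell. These 4 of the 10 lncRNAs passed an FDR below 0.05, against 39.9% of all genes (22.2% higher and 17.7% lower). All 8 snoRNA hosts had a lower mean in CP70, in the fit as reported and in every alternative run. The median log2 fold change (log2FC) of the 10 was -0.53, against -0.02 for all genes. Libraries of the lines did not overlap in 8 of the 10, against 54.6% of all genes.

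MALAT1 was 1.72-fold higher in CP70, where all 3 libraries lay above those of A2780 (log2FC 0.78 ± 0.14 SE, FDR 0.000104). GAS5, first described as a transcript that accumulates in growth-arrested cells, was at 7.84, 7.63 and 7.91 log2 CPM in A2780 and at 7.20, 7.20 and 7.23 in CP70. The CP70 libraries were all lower, at 67.0% of the A2780 level (log2FC -0.58 ± 0.14, FDR 0.00178). SNHG8, which carries the H/ACA snoRNA SNORA24, was at 6.05, 5.34 and 6.11 log2 CPM in A2780 and at 4.72, 4.57 and 4.83 in CP70. It fell to 45.9%, without overlap (log2FC -1.12 ± 0.28, FDR 0.00282), the only difference of this pair past a log2FC of 1, which 19.2% of all genes passed. ZFAS1, which hosts C/D box snoRNAs of the SNORD12 group, was at 5.73, 5.46 and 5.74 log2 CPM in A2780 and at 5.01, 4.88 and 4.90 in CP70. It was lower in all 3 CP70 libraries, at 61.1% (log2FC -0.71 ± 0.16, FDR 0.00161).

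The other hosts did not pass, with a log2FC of -0.28 for SNHG1 (FDR 0.1004), -0.58 for SNHG7 (FDR 0.226), -0.48 for SNHG12 (FDR 0.307), -0.78 for SNHG15 (FDR 0.0542) and -0.23 for SNHG16 (FDR 0.119). SNHG1, SNHG7, SNHG12 and SNHG15 nevertheless had no overlap between the libraries of the lines. They passed when the pair was fitted alone (FDR 0.0287, 0.0199, 0.0132 and 0.00186) and with voom precision weights, which brought the count from 4 to 8. Leaving out A2780 replicate 1 brought SNHG16 to an FDR of 0.0066, and leaving out PEA2 replicate 1 brought SNHG1 to 0.0422. SNHG15 passed in 7 of the 18 fits that left out 1 library, those without A2780 replicate 2, PEA1 replicates 1 and 2, PEA2 replicate 1, PEO1 replicate 3 and PEO4 replicates 2 and 3 (FDR 0.0295 to 0.0499). NEAT1 had a log2FC of -0.25 (FDR 0.299).

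**Figure D2:**
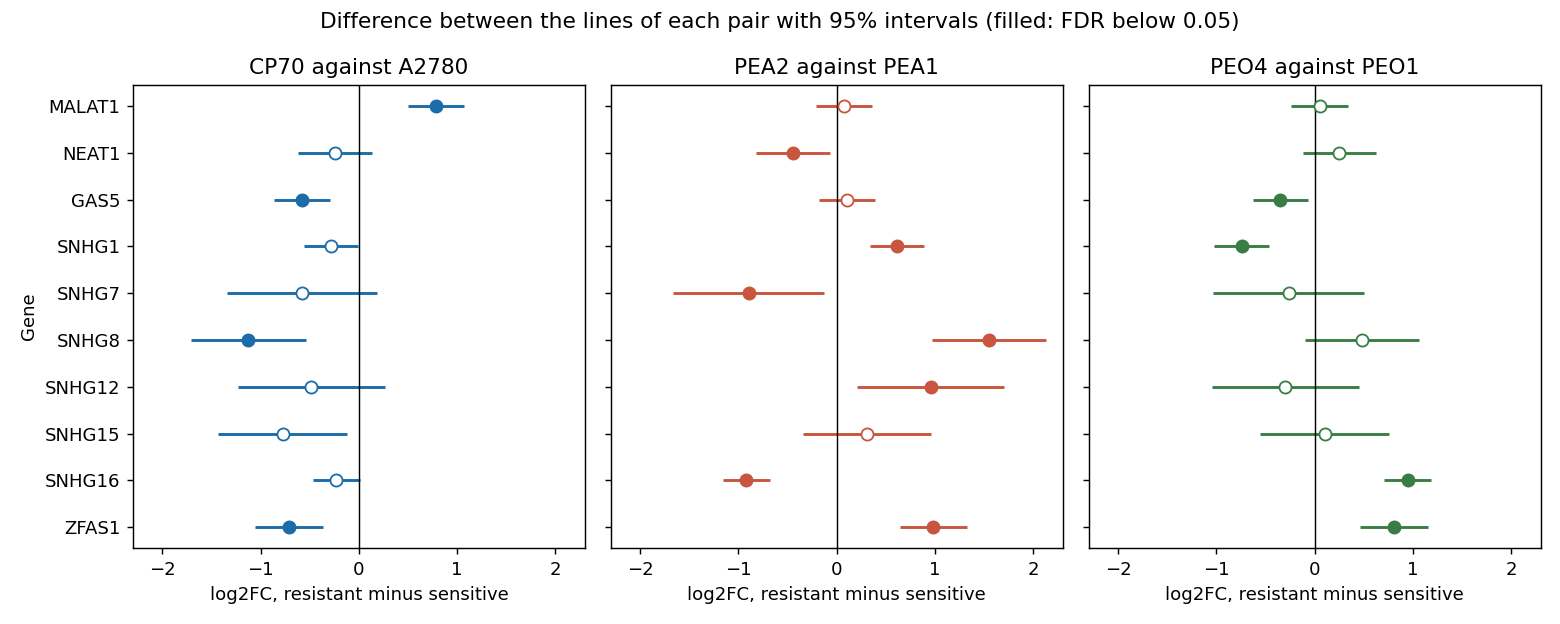
Resistant minus sensitive level within each pair of lines (log2FC on the horizontal axis, with 95% intervals from limma) for each lncRNA. Filled points passed an FDR below 0.05, namely 4 of 10 for A2780, 7 for PEA and 4 for PEO, and the hosts lie left of 0 in the first panel and on both sides in the others.

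Between PEA2 and PEA1, SNHG1, SNHG8, SNHG12 and ZFAS1 rose and NEAT1, SNHG7 and SNHG16 fell. These 7 of 10 compare with 61.9% of all genes past the same FDR (32.5% higher and 29.4% lower). The median log2FC of the 10 was 0.21, against 0.01 for all genes, and 6 had no overlap between the lines, against 62.6% of all genes. With plain library totals the median of all genes moved to -0.24, a shift of -0.24, so differences in this pair are relative to the scaling of the deposited values.

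SNHG8 had the largest log2FC, going from 2.79, 2.21 and 3.41 log2 CPM in PEA1 (6 to 18 reads) to 4.28, 4.60 and 4.17 in PEA2. It was 2.93-fold higher in PEA2 without overlap (log2FC 1.55 ± 0.28 SE, FDR 7.31e-05) and the only one of the 10 past a log2FC of 1, as were 33.6% of all genes. ZFAS1 went from 5.11, 4.92 and 5.12 log2 CPM in PEA1 to 5.80, 6.54 and 5.76 in PEA2. It was 1.98-fold higher, with PEA2 replicate 2 highest (log2FC 0.98 ± 0.16, FDR 3.38e-05). SNHG1, the host of 8 C/D box snoRNAs, went from 5.14, 5.31 and 5.02 log2 CPM to 6.12, 5.65 and 5.54. All PEA2 libraries were above all PEA1 libraries (1.53-fold, log2FC 0.61 ± 0.13, FDR 0.000502). SNHG12 was at 2.93, 1.68 and 1.01 log2 CPM in PEA1 and at 3.38, 2.49 and 2.63 in PEA2. These libraries overlapped, and the increase (log2FC 0.96 ± 0.36, FDR 0.0261) rested on 3 to 10 reads in PEA1. With 2 reads added to each count in place of 0.5 it was 0.71 (FDR 0.0518).

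SNHG16, which hosts the SNORD1 snoRNAs, fell with little spread. Its PEA1 libraries stood at 7.77, 7.57 and 7.41 log2 CPM and its PEA2 libraries at 6.65, 6.53 and 6.81. PEA2 held 52.8% of the PEA1 level without overlap (log2FC -0.92 ± 0.11, FDR 7.56e-07). SNHG7, the host of SNORA17A and SNORA17B, stood at 3.96, 3.72 and 3.87 log2 CPM in PEA1 and at 2.00, 3.71 and 3.16 in PEA2. All PEA2 libraries were lower, replicate 1 by far with 7 reads (log2FC -0.90 ± 0.37, FDR 0.0399). NEAT1 was lower in all PEA2 libraries than in all PEA1 libraries, at 73.5% (log2FC -0.44 ± 0.18, FDR 0.0377). MALAT1 (log2FC 0.07, FDR 0.658), GAS5 (0.10, FDR 0.521) and SNHG15 (0.31, FDR 0.405) did not pass, and the signs of MALAT1 and GAS5 flipped with plain library totals (-0.17 and -0.14).

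The calls for NEAT1, SNHG7 and SNHG12 in the PEA pair depended on single libraries. NEAT1 did not pass without PEA1 replicate 1 (FDR 0.149) or 2 (0.0596) or PEA2 replicate 2 (0.144) or 3 (0.0768). SNHG7 did not pass without PEA1 replicate 1 (FDR 0.0923), 2 (0.0546) or 3 (0.077) or PEA2 replicate 1, which also brought its log2FC to -0.42 (FDR 0.289). SNHG12 did not pass without PEA1 replicate 2 (FDR 0.0738) or 3 (0.188, log2FC 0.53) or PEA2 replicate 1 (0.132), and without PEA1 replicate 2 the count of the pair fell from 7 to 4. With voom weights none of the 3 passed (FDR 0.0507 to 0.1875), nor did NEAT1 and SNHG7 without the variance trend, SNHG7 and SNHG12 with the pair fitted alone, or SNHG12 with plain totals.

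Between PEO4 and PEO1, SNHG16 and ZFAS1 rose and SNHG1 and GAS5 fell. These 4 of 10 compare with 41.5% of all genes (19.6% higher and 21.9% lower). The median log2FC of the 10 was 0.08, against -0.02 for all genes, and SNHG1, SNHG16 and ZFAS1 had no overlap between the lines, against 57.5% of all genes. SNHG16 went from 7.73, 7.69 and 7.70 log2 CPM in PEO1 to 8.67, 8.69 and 8.60 in PEO4, with little spread in either line. It was 1.93-fold higher in PEO4 (log2FC 0.95 ± 0.11 SE, FDR 1.30e-06). ZFAS1 went from 5.79, 5.81 and 5.80 log2 CPM in PEO1 to 6.37, 6.74 and 6.72 in PEO4. All PEO4 libraries were higher (1.75-fold, log2FC 0.81 ± 0.16, FDR 0.000495).

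SNHG1 stood at 6.44, 6.36 and 6.65 log2 CPM in PEO1 and at 5.75, 5.73 and 5.74 in PEO4. Its PEO4 libraries were all lower, at 59.8% (log2FC -0.74 ± 0.13, FDR 0.000142). GAS5 stood at 6.26, 6.57 and 6.59 log2 CPM in PEO1 and at 5.90, 6.42 and 6.06 in PEO4, where replicate 2 lay within the PEO1 range. Its log2FC of -0.35 ± 0.14 was just past the threshold (FDR 0.0461). It did not pass with plain library totals (FDR 0.0596), which left 2 up and 1 down in the pair, with quantile normalization (FDR 0.0758) or without the variance trend (FDR 0.0819). Nor did it pass without PEO1 replicate 2 (FDR 0.143) or 3 (0.151) or PEO4 replicate 1 (0.228) or 3 (0.127), nor without A2780 replicate 1 or 3, any CP70 replicate or PEA1 replicate 1, which left the log2FC as it was (FDR 0.0503 to 0.0567). The 6 other lncRNAs had a log2FC between -0.30 for SNHG12 and 0.49 for SNHG8 (FDR at least 0.176), with 0.05 for MALAT1 and 0.25 for NEAT1. None of the 10 passed a |log2FC| of 1 in this pair, against 18.8% of all genes.

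No lncRNA of the 10 passed a |log2FC| of 2 with an FDR below 0.05 in limma in any pair. At an unadjusted p below 0.05, 0 did. Among all genes 9.06% passed both cutoffs between A2780 and CP70, 14.1% between the PEA lines and 6.22% between the PEO lines. The paper used the same cutoffs, but this fit did not return all of its calls. Of the genes it lists for all 3 pairs, PARP9, CCDC80 and THBS1 passed here. DDX60L, BCAM, SPHK1, TLE4, MAP1A and VEPH1 each fell short of 2 in some pair, with -1.51 for TLE4 between the PEA lines. SNHG8 reached 1.55 there, and whether the paper's own fit would call it was not tested. Without the threshold of 2 on size, 15 of the 30 differences were called. The calls fell on 9 lncRNAs in at least 1 pair, and SNHG15 was called in none, as were 15.7% of all genes. ZFAS1 was called in all 3 pairs, as were 12.7% of all genes, but downward in the A2780 pair and upward in the PEA and PEO pairs. None kept 1 direction through the 3 pairs among its calls. SNHG1 (up in PEA2, down in PEO4), SNHG8 (down in CP70, up in PEA2), SNHG16 (down in PEA2, up in PEO4) and ZFAS1 were called in opposite directions. The shares of all genes with calls in 1 direction or in opposite directions were not computed.

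The differences between the pairs were tested directly with limma's moderated F test over the 3 pair contrasts. For 8 of the 10 lncRNAs the change differed between pairs at an FDR below 0.05, against 75.3% of all genes. SNHG16 had the lowest FDR (1.56e-08), followed by ZFAS1 (3.00e-06), SNHG1 (9.32e-06) and SNHG8 (2.14e-05). MALAT1 (FDR 0.0028), GAS5 (0.0104), SNHG12 (0.0287) and NEAT1 (0.0466) also passed, while SNHG7 (0.519) and SNHG15 (0.0691) did not. NEAT1 did not pass with the replicate block (FDR 0.0575) or in 12 of the 18 fits without 1 library, and GAS5 did not pass with quantile normalization (FDR 0.0751) or plain library totals (FDR 0.149). SNHG12 did not pass with plain totals (FDR 0.0821) or without PEA1 replicate 2 or 3 or PEA2 replicate 1 (FDR 0.0656 to 0.112). A linear model of sensitivity over all pairs called 0 of the 10 with limma, against 24.1% of all genes. An unadjusted p below 0.05 was reached by 3 of them, MALAT1 (log2FC 0.30, FDR 0.0754), GAS5 (-0.27, FDR 0.0776) and SNHG7 (-0.58, FDR 0.076), and voom weights called 2 (GAS5 and SNHG7). The spread in this model also holds the differences in change between pairs, and libraries of a line are counted as independent. For SNHG16 the SE was 0.20 in this model, against 0.11 in each pair contrast.

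Over the 18 libraries, MALAT1 and NEAT1 had a Pearson r of 0.74, and an r of 0.74 also for their deviations from the line means. Many genes had a higher r over the libraries. Among 12498 genes with a mean log2 value above 0, NEAT1 had rank 939 for MALAT1, and MALAT1 had rank 1755 for NEAT1. In PEO4 replicate 2 both lncRNAs were high, MALAT1 by 0.34 and NEAT1 by 0.59 above the line mean, and in PEO4 replicate 1 both were low, by -0.30 and -0.39. The 8 hosts had r values between -0.34 and 0.92 with one another (median 0.65 over 28 pairs), and for deviations from line means these ran from -0.56 to 0.72 with a median of 0.05. GAS5, SNHG1, SNHG7, SNHG8, SNHG12 and SNHG15, which were singled out above for their levels in A2780 and CP70, spanned 0.64 to 0.92 (median 0.79 over 15 pairs), a range that their choice in part fixes. The lowest r was -0.84, between NEAT1 and SNHG15. Libraries of a line share their origin, and these values are descriptions over 6 lines.

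The genes closest in pattern, by Pearson r over the 18 libraries among 12498 genes with a mean log2 value above 0, were PHACTR2 (0.98) and ERBB2, a receptor tyrosine kinase (0.97), for MALAT1 and SPATA20 and PDK4 (both 0.98) for NEAT1. For GAS5 they were POLR1B, a subunit of RNA polymerase I (0.97), and SNHG17, another snoRNA host (0.95). EIF1AX and MRPL15 were closest to SNHG1 (0.96 and 0.95), TOMM40 and PRADC1 to SNHG7 (0.96 and 0.94), and C19orf25 and PRPF19 to SNHG8 (0.95 and 0.93). HIST1H2BM and CCDC106 were closest to SNHG12 (both 0.97), SAFB2 and ELP5 to SNHG15 (0.95 and 0.94), RPTOR and NUP85 to SNHG16 (0.96 and 0.95), and CDKN1B and GMPR2 to ZFAS1 (0.91 and 0.90).

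By position on GRCh37, 5 hosts overlap a listed gene on the other strand. The libraries kept the strand, but whether the counting used it is not given in the sources used here, so reads of such partners cannot be told apart. GAS5 overlaps ZBTB37, whose log2FC was -0.57 in CP70, -1.02 in PEA2 and 0.74 in PEO4 (FDR at most 0.000801). ZFAS1 overlaps ZNFX1, which rose in all 3 pairs with 0.91, 0.86 and 0.99 (FDR at most 2.85e-06), whereas ZFAS1 fell in the first. SNHG12 overlaps TRNAU1AP (-0.44, 0.52 and -1.02, of which the last passed with an FDR of 0.0228), and SNHG7 overlaps DIPK1B (-1.02, 1.53 and 0.70, of which the PEA value passed with an FDR of 0.0176). SNHG16 overlaps ST6GALNAC2, which did not pass in any pair, without touching its exons. SNHG1 starts 51 bases from SLC3A2, an amino acid transporter chain on the opposite strand, which had a log2FC of -0.23 (FDR 0.103), 0.85 (FDR 1.02e-06) and -0.28 (FDR 0.0404), the signs seen for SNHG1. FRMD8, the neighbour of NEAT1, fell in the PEA pair (-0.74, FDR 0.00167).

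**Figure D3:**
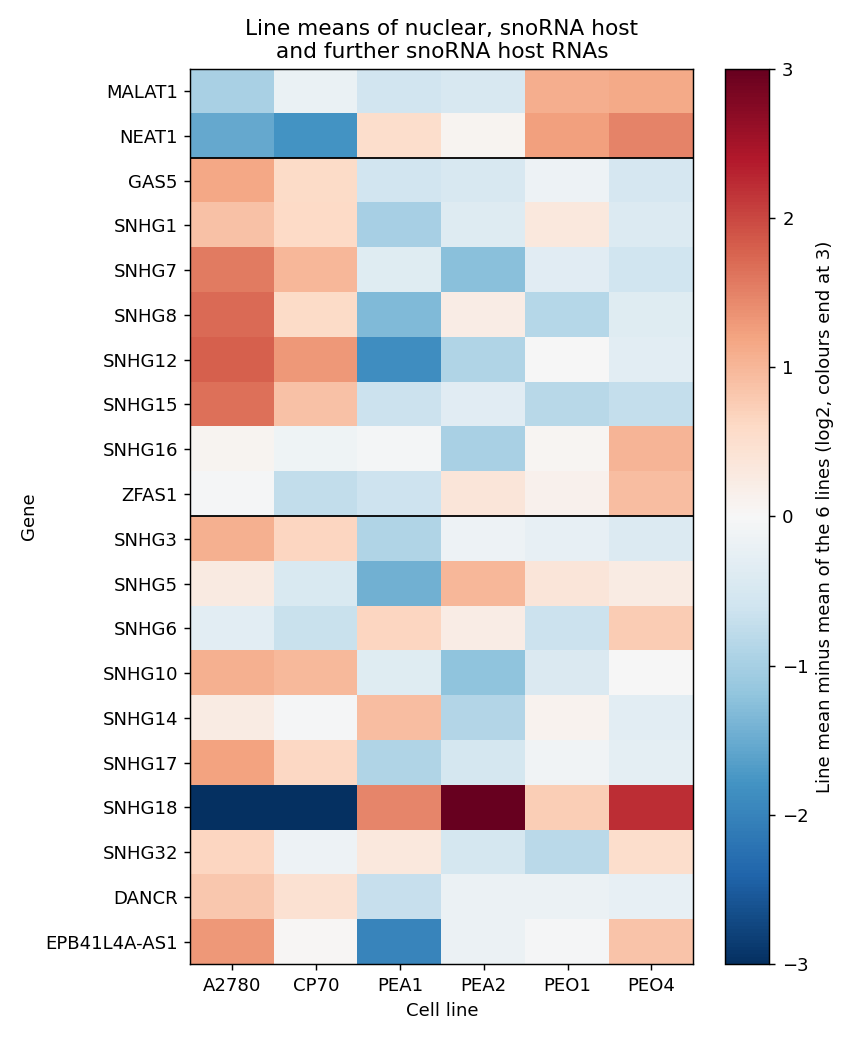
Mean level of each lncRNA in each line minus the mean of the 6 lines (log2, colour) with genes in rows and lines in columns. MALAT1 and NEAT1 are above the upper rule, the 8 hosts between the rules and 10 further snoRNA host lncRNAs below; most hosts are red in A2780 and CP70, while SNHG16, SNHG5, SNHG14 and SNHG32 are below their mean in CP70 and ZFAS1, SNHG6 and SNHG18 in both lines.

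The counts of each list below stand beside these shares of all genes at an FDR below 0.05. In the A2780 pair 22.2% rose and 17.7% fell. The shares were 32.5% and 29.4% in the PEA pair and 19.6% and 21.9% in the PEO pair. Of 22 further snoRNA host lncRNAs, 10 were measured. In the A2780 pair 0 rose and 5 fell (median log2FC -0.48), in the PEA pair 6 rose and 2 fell (median 0.44), and in the PEO pair 3 rose and 1 fell (median 0.17). With plain library totals the split in the PEA pair was 4 and 4. SNHG5 had a log2FC of -0.72 (FDR 0.00878, and 0.0556 without A2780 replicate 3) in the A2780 pair and 2.44 (FDR 4.68e-09) in the PEA pair, past the threshold of 2, and -0.12 (FDR 0.699) in the PEO pair. SNHG17 fell in CP70 (-0.59, FDR 0.00356) and rose in PEA2 (0.37, FDR 0.0397), the latter passing in 17 of 26 other fits and not without PEA1 replicate 1 or 3 or PEA2 replicate 2 or 3 (FDR up to 0.177), nor in 5 of the 8 alternative settings (FDR up to 0.467, with plain totals). SNHG3 and DANCR rose in PEA2 (0.75, FDR 0.0047, and 0.52, FDR 0.00276, the latter 0.28 with an FDR of 0.0957 with plain totals) and had -0.41 (FDR 0.137) and -0.35 (FDR 0.0505) in the A2780 pair. In the PEO pair SNHG17, SNHG3 and DANCR had a log2FC between -0.20 and -0.06 and did not pass.

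Of 40 protein-coding genes that host snoRNAs, all 40 were measured. In the A2780 pair 5 rose and 11 fell, in the PEA pair 9 rose and 11 fell, and in the PEO pair 5 rose and 6 fell, with medians of -0.18, -0.13 and -0.01. With plain library totals 8 rose and 19 fell in the PEA pair, and 14.1 percentage points fewer of all calls were upward there. EIF4A2, a translation initiation helicase, fell in CP70 (-0.39, FDR 0.00451) and rose in PEA2 (2.49, FDR 1.32e-13). TAF1D, a factor of RNA polymerase I initiation, did likewise with smaller values (-0.29, FDR 0.0268, and 0.55, FDR 0.000112), the first not passing without A2780 replicate 1 or 2 or CP70 replicate 1 or 3 (FDR 0.0542 to 0.133) or with plain totals (FDR 0.0628). EEF2, the translation elongation factor, rose in PEA2 (0.89, FDR 8.48e-07) and had -0.26 in the A2780 pair (FDR 0.0672). RACK1, a ribosomal scaffold protein listed as GNB2L1, rose in CP70 (0.29, FDR 0.0198) and PEO4 (0.47, FDR 0.000565), but not in CP70 without A2780 replicate 2 or 3 or CP70 replicate 2 (FDR 0.0532 to 0.0627).

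The proteins that assemble on snoRNAs gave no call between A2780 and CP70. Of 17 core and assembly factors 0 passed limma there, and 1 had an unadjusted p below 0.05. Plain library totals and voom weights called 1 each, a fit of the pair alone 2, and the fits without A2780 replicate 1, PEA2 replicate 1 or PEA2 replicate 2 called 1 each. In the PEA pair 4 rose and 7 fell, and in the PEO pair 1 rose and 4 fell. FBL, the methyltransferase of C/D box particles, fell in PEA2 (-1.10, FDR 1.02e-06). DKC1, the pseudouridine synthase of H/ACA particles and itself a snoRNA host, fell in PEO4 (-0.94, FDR 2.01e-07). NOLC1, a nucleolar chaperone of these particles, rose in PEA2 (0.32, FDR 0.000839, but 0.431 with plain totals and 0.186 with quantile normalization) and PEO4 (0.37, FDR 0.000372), and NOP58 had values between -0.14 and 0.25 that did not pass.

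Of 22 paraspeckle proteins, the partners of NEAT1, 0 rose and 9 fell in CP70. In the PEA pair 2 rose and 5 fell, and in the PEO pair 5 rose and 3 fell. Of all genes, 39.9%, 61.9% and 41.5% were called in the A2780, PEA and PEO pairs. With plain library totals 1 of the 22 rose and 12 fell in the PEA pair. The core proteins NONO (-0.24, FDR 0.0418), SFPQ (-0.30, FDR 0.00644) and PSPC1 (-0.60, FDR 5.9e-05) fell in CP70. SFPQ also fell in PEA2 (-0.45, FDR 0.000124), NONO rose in PEO4 (0.31, FDR 0.00842) and PSPC1 fell in PEO4 (-0.31, FDR 0.0173). In the A2780 pair NONO did not pass with quantile normalization (-0.15, FDR 0.183), plain totals or no variance trend, nor without A2780 replicate 1 or 2, any CP70 replicate or PEO4 replicate 1 (FDR 0.0517 to 0.161). It did not pass in the PEO pair without PEO4 replicate 3 (FDR 0.0511), and PSPC1 did not pass in the PEO pair without PEO1 replicate 1 (FDR 0.0864) or PEO4 replicate 1 (FDR 0.0542). The count of 9 in the A2780 pair was 5 with quantile normalization, without A2780 replicate 2 and without CP70 replicate 1, and the count of 8 in the PEO pair was 5 without PEO1 replicate 3 or PEO4 replicate 1 and 4 without PEO4 replicate 3.

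Of 18 nuclear speckle proteins, which surround MALAT1, 0 rose and 5 fell in the A2780 pair, 4 rose and 8 fell in the PEA pair, and 6 rose and 1 fell in the PEO pair. The count of 5 was 3 without A2780 replicate 3 or any CP70 replicate and 2 without A2780 replicate 1, and with plain totals 2 rose and 11 fell in the PEA pair. SON, a core protein of speckles, rose in PEO4 (0.73, FDR 2.88e-06), SRRM2, the other core protein, fell in PEA2 (-0.67, FDR 1.61e-05), and the splicing factor SRSF1 fell in PEA2 (-0.40, FDR 0.000329) and rose in PEO4 (0.29, FDR 0.00731). Of 16 factors of nonsense-mediated decay, 0 rose and 3 fell in the A2780 pair, 5 rose and 7 fell in the PEA pair, and 3 rose and 1 fell in the PEO pair. With plain totals 1 rose and 3 fell in the A2780 pair and 3 rose and 8 fell in the PEA pair. In PEA2 the central helicase UPF1 (0.90, FDR 3.99e-07) and its kinase SMG1 (0.34, FDR 0.00854, but 0.46 with plain totals and 0.184 with quantile normalization) rose, and SMG5, which acts on phosphorylated UPF1, fell (-1.35, FDR 5.21e-11). None of the 3 passed in the A2780 or PEO pair (log2FC between -0.19 and 0.25).

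Of 18 other nuclear or abundant noncoding RNAs, 14 were measured, and 2 rose and 4 fell in the A2780 pair (1 and 4 with quantile normalization), 4 rose and 5 fell in the PEA pair, and 5 rose and 4 fell in the PEO pair. NORAD, a cytoplasmic RNA that binds Pumilio proteins and is listed as LINC00657, rose in all 3 pairs (0.30, FDR 0.0102, then 0.94, FDR 1.56e-08, and 0.41, FDR 0.000717). TUG1 rose in PEA2 (0.83, FDR 1.07e-05) and PEO4 (0.62, FDR 0.000511). OIP5-AS1 fell in CP70 (-0.71, FDR 1.44e-06) and PEO4 (-0.75, FDR 8.04e-07), and KCNQ1OT1, the imprinted antisense RNA, had values between -0.38 and 0.05 that did not pass. In the A2780 pair, where none of several lists had an upward call in limma, an upward difference with an unadjusted p below 0.05 was found for 0 of the 10 further snoRNA host lncRNAs, 0 of the paraspeckle and 0 of the nuclear speckle proteins and 1 of the decay factors.

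**Figure D4:**
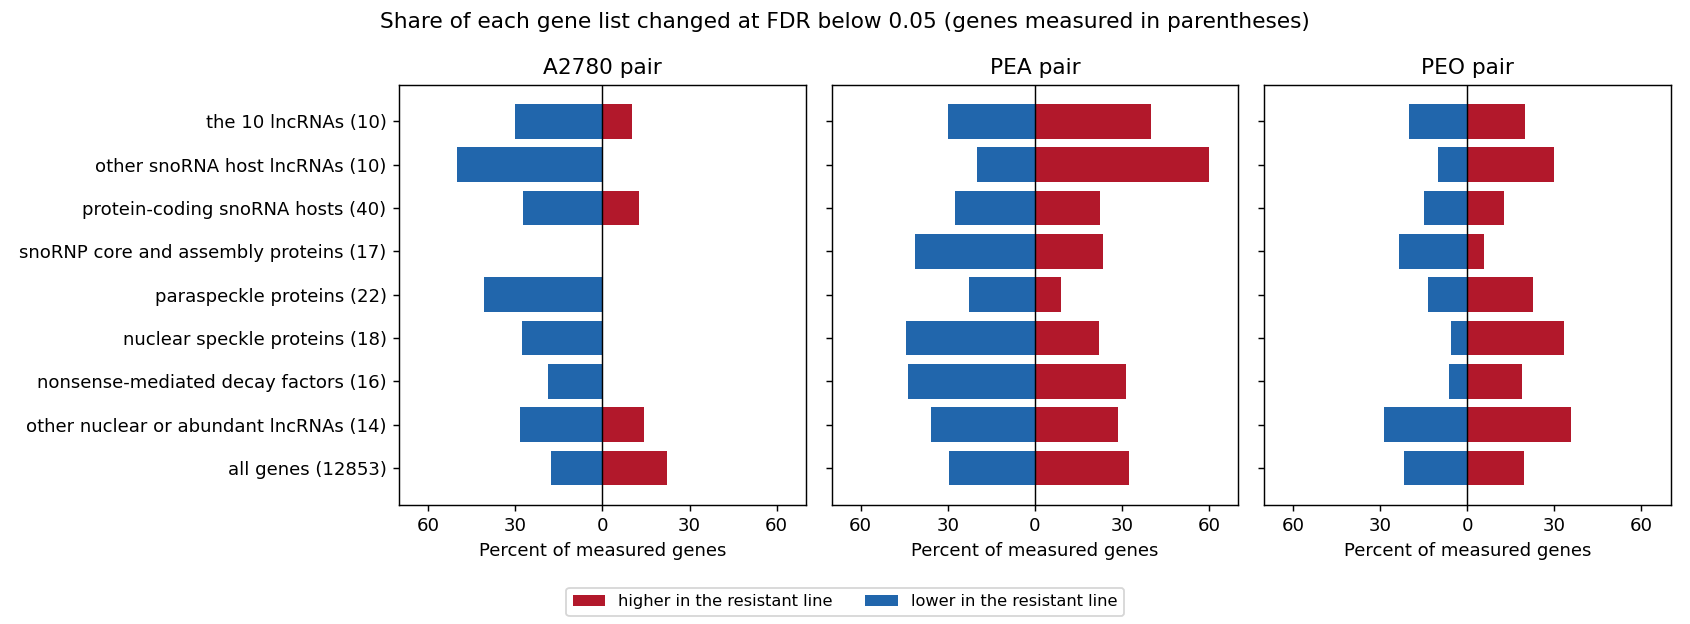
Percent of the measured genes of each list that passed an FDR below 0.05, to the right for higher and to the left for lower in the resistant line, in the 3 pairs, with all 12853 genes in the last row. The A2780 panel has bars to the left alone for the further snoRNA host lncRNAs, the paraspeckle and nuclear speckle proteins and the decay factors, and no bar for the snoRNP proteins, whereas 22.2% of all genes lay to the right and 17.7% to the left.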

How the data were processed

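RNA-seq of 18 libraries was used, 3 for each of 6 lines. Per the paper and the processing notes, the authors aligned reads with Bowtie2, assigned them to hg19 genes with featureCounts and normalized them with limma; versions and the strand setting are not given in the sources used here. The deposited values are log2 CPM, with 0.5 added to every read count before division by a scaled library size. Whole reads were recovered from these values to give depth. Differences were fitted with limma 3.58.1 in R 4.3.3, with a variance trend and a mean for each of the 6 lines, and adjusted over 12853 genes (Benjamini-Hochberg, FDR below 0.05). SE and SD are on the log2 scale unless a level per kilobase is given. Tests were checked on simulated data with 200 changed genes. Of 100 genes changed by 1 log2, limma recovered 63, 69 and 74 in the A2780, PEA and PEO pairs. Of 100 changed by 2 log2 it recovered 100, 99 and 100. Differences of 1 log2 or less can thus be missed, and the shares may differ in the real data. Positions came from GENCODE on GRCh37, which matched 12642 identifiers. The members and lists were chosen with earlier results of these data known. The text names the 10 members, set genes of each list, the 2 genes closest in pattern and the genes next to members. Some genes that this rule names are not reported here. The labels do not say that replicate numbers pair the libraries, and the fit as reported did not pair them. Values cover counting error only where reads are given. No library was left out of the fit as reported.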

Additional observations from a re-analysis of the deposited data

Results flagged for a closer look

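The change between the resistant and the sensitive line differed between the 3 pairs for 8 of the 10 lncRNAs in limma's moderated F test. SNHG16 (FDR 1.56e-08), ZFAS1 (3.00e-06), SNHG1 (9.32e-06), SNHG8 (2.14e-05) and MALAT1 (0.0028) passed in all 7 alternative settings and all 18 fits without 1 library. GAS5 (FDR 0.0104) passed in every fit without 1 library and in 5 of 7 alternatives (FDR up to 0.149). SNHG12 (FDR 0.0287) passed in 15 of 18 fits without 1 library and in 6 of 7 alternatives, and NEAT1 (FDR 0.0466) in 6 of 18 and 4 of 7. With 3 libraries per line, single libraries were not tested for standing apart.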

How the results depend on the processing

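Of the 15 called differences, 11 were called in all 8 alternative settings and all 18 fits without 1 library, and all 15 had the same sign in each. The calls lost in at least 1 were NEAT1, SNHG7 and SNHG12 in the PEA pair and GAS5 in the PEO pair. The count for the A2780 pair was 4 as reported, 8 with each pair fitted alone, 8 with voom precision weights and 1 at an absolute log2FC above 1. For the PEA pair it was 7 as reported, 4 with voom weights and 1 at an absolute log2FC above 1, and for the PEO pair it was 4 and 0 at that size. Without 1 library at a time these counts ran from 4 to 6, 4 to 7 and 3 to 4. The linear model called 0 as reported, 1 with quantile normalization, 1 with plain library totals, 2 with voom weights and 0 to 1 without 1 library. The F test called 8 as reported and 6 to 9 without 1 library. Among the lists, the protein-coding hosts in the PEO pair went from 11 to 18 and the snoRNP proteins there from 5 to 8 with each pair fitted alone, the paraspeckle proteins in the PEA pair from 7 to 13 with plain totals, the nuclear speckle proteins in the A2780 pair from 5 to 3 with quantile normalization, plain totals, the replicate block or no variance trend, and the decay factors in the A2780 pair from 3 to 5 with voom weights. The count past a log2FC of 2 was 0 in every setting. With the replicate block, 4, 7 and 4 lncRNAs were called in the 3 pairs, and the F test called 7, losing NEAT1 (FDR 0.0575). Same-numbered libraries of a pair had correlations of their deviations between -0.0382 and 0.0782, so no common deviation was seen over the genes. The labels do not say whether such libraries were handled together, and this check cannot decide it. SNHG12 had 3 to 10 and SNHG8 6 to 18 reads in the PEA1 libraries, and SNHG7 had 7 in PEA2 replicate 1. The cause of a lost call was not tested.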
